A study of Homo sapiens with 18 samples.

Results

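The transcriptional response of WT T47D cells to the PARP inhibitor niraparib was described across all genes from 6 of the 18 RNA-seq libraries of the series, 3 of niraparib-treated and 3 of DMSO-treated cells, chosen by their genotype and treatment labels. T47D is an estrogen receptor-positive luminal breast cancer cell line. Both groups were cultured for 48 hours, one with niraparib at 10 μmol/L and the other with the solvent DMSO. The other 12 libraries were 3 of WT cells with olaparib, a second PARP inhibitor, at the same dose and time, and 9 of PARP1 KO cells with DMSO, niraparib or olaparib. The labels name the WT cells T47D AAV and the knockout cells T47D JL. They do not say how either line was derived or whether the knockout cells are 1 clone, so genotype and line cannot be told apart. The methods describe 3 dishes for each condition, but no label ties a library to a dish, and the p-values measure only the spread between these libraries, which may be technical.

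PARP1 binds breaks in DNA, marks itself and nearby proteins with chains of ADP-ribose and so recruits repair factors. Inhibitors that occupy its catalytic site stop this modification and hold the protein on DNA, where it can obstruct replication forks. Cells that meet stalled forks or breaks are known to slow their passage through S and G2 phase, and mitotic genes are the last to be switched on in the cycle. Genes of DNA synthesis are transcribed earlier, from promoters bound by E2F factors, and mitotic genes later, from promoters with a CHR element and CCAAT boxes that are read by the DREAM and MYB-MuvB complexes and by the factor NF-Y.

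Total counts of the 6 libraries lay between 30293678 and 52251288, and mitochondrially encoded genes held between 4.39% and 5.60% of them. No library repeated another, since the chi-square per gene was 3.28 to 19 over the 6 pairs of same-group libraries. Niraparib replicate 2 and DMSO replicate 1 lay farthest from the rest of their group. The SD of the log2(CPM + 1) difference between a library and the other 2 of its group was 0.201 and 0.219 in these, and 0.135 to 0.148 in the other 4, where CPM is the TMM-scaled count relative to library size. All 12 markers of luminal T47D cells were detected, with at least 3911 counts of ESR1 and 56449 of KRT18 in every library. The lowest of them was TFF1, with 145 to 287 counts. Of 5 endothelial markers CDH5 had 0 counts and the highest was VWF with up to 11, and among blood cell markers CD3E, MS4A1, LYZ and HBB had at most 2 counts and CD14 up to 17. The summed level of the 3 blood cell markers tested was 2.25 to 2.63 CPM with niraparib and 2.09 to 2.16 CPM with DMSO, and 0 of them were called. Of 7 fibroblast markers 6 were tested and 0 called, and their summed level of 115 to 155 CPM with niraparib and 105 to 131 CPM with DMSO was mostly COL1A1. Of 8 basal and mesenchymal markers KRT5, KRT14 and ZEB1 had at most 6 counts, CDH2 and VIM 3 to 29, AXL 35 to 329, TP63 42 to 131 and FN1, which encodes fibronectin, 1073 to 2359. PARP1 itself was at 319, 294 and 315 CPM after niraparib and 351, 379.7 and 372 CPM after DMSO, which gave a log2 difference of -0.25 ± 0.05 (SE) (adjusted p = 0.00021), which was under the fold needed for a call. In the PARP1 KO libraries with niraparib and with DMSO it was between 22.9 and 26.3 CPM.

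Niraparib changed the level of 3102 of 22446 genes tested, passing both an adjusted p of 0.05 and a 1.5-fold threshold in the edgeR quasi-likelihood test. Of these, 1819 genes (8.1% of those tested) were higher and 1283 (5.72%) were lower. A change of more than 4-fold was called for 265 genes upward and 129 downward, of which 45 and 18 averaged 1 CPM or more. At an adjusted p below 0.05 without a fold threshold, 19.9% of genes were higher and 18.1% lower. The 3 niraparib libraries did not overlap the 3 DMSO libraries in 2992 of the 3102 called genes, against 46.6% of all genes tested. The median log2 fold change over all genes was -0.02. Leaving out niraparib replicate 2 and DMSO replicate 1 together gave 2960 called genes, 1672 higher and 1288 lower.

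**Figure D1:**
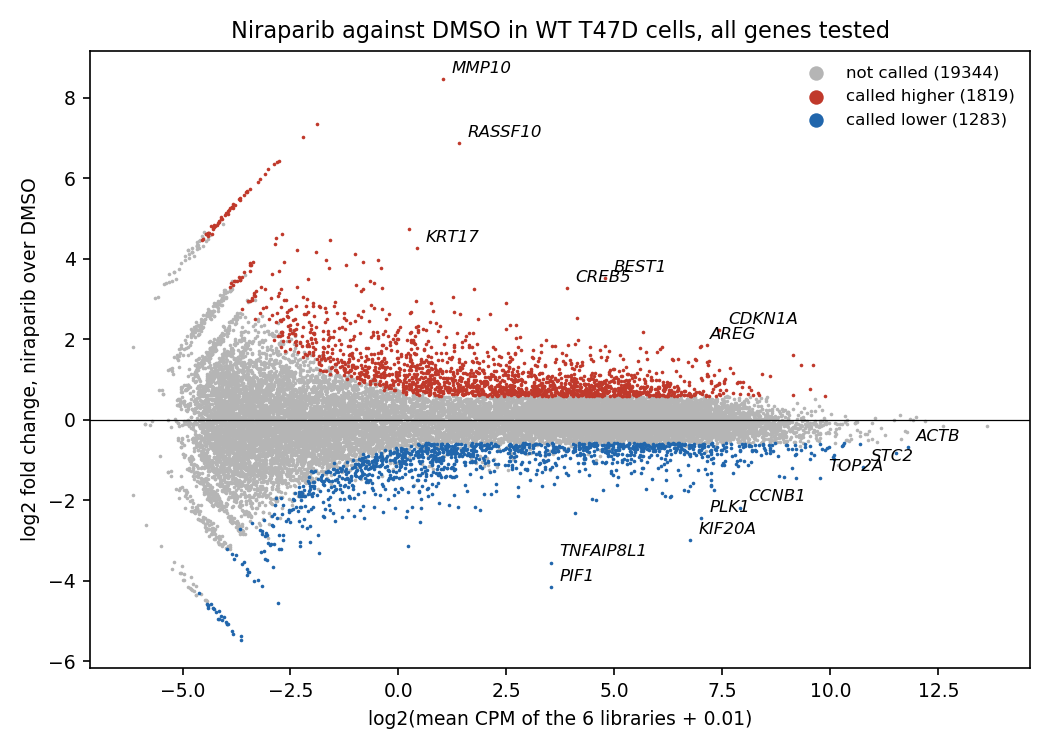
Log2 fold change (niraparib over DMSO) against the log2 mean level of the 6 WT libraries for all 22446 genes tested, with 1819 genes called higher in red, 1283 called lower in blue and the others in grey. The named mitotic genes KIF20A, PLK1 and CCNB1 lie far below 0 at high levels, and 45 of the 265 genes called more than 4-fold higher averaged 1 CPM or more.

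With the mean held to at least 1 CPM, the largest increases included a protease, a keratin, transcription factors and secreted ligands. MMP10, a secreted metalloprotease that cleaves matrix proteins (chromosome 11, 102770502 to 102780628), had 102, 288 and 154 counts in the niraparib libraries and 0, 0 and 1 in the DMSO libraries. The ratio of summed counts was 546, with an exact 95% interval for counting error from 97.7 to 21600. RASSF10, a Ras-association domain protein, had 176, 327 and 178 counts against 0, 2 and 3, a ratio of 137 with an interval from 58.3 to 423. Neither gene had more than 3 counts in any DMSO library, and every niraparib library was far above that. KRT17, a keratin of stressed and basal epithelia, was at 2.13, 2.96 and 2.63 CPM with niraparib and 0.0337, 0.178 and 0.151 CPM with DMSO, which gave a log2 difference of 4.27 ± 0.41 (SE) (adjusted p = 3.2e-08). CREB5, a leucine zipper factor that pairs with JUN, was at 23.6, 31.2 and 27.2 CPM against 2.19, 3.59 and 2.52 CPM (3.27 ± 0.15 (SE) on the log2 scale, adjusted p = 1.3e-11). In both genes the lowest niraparib library was several times the highest DMSO library. BEST1, a chloride channel, reached 38.6, 75.2 and 39 CPM from 5.42, 4.63 and 3.55 CPM, a log2 fold change of 3.51 ± 0.34 (SE) (adjusted p = 0.00023). Niraparib replicate 2 was far above the other 2, and the gene was called without it as well. The rest of the 12 were SRPK3, a kinase of splicing factors, EREG, LIF, ACHE, which degrades acetylcholine, the activin subunit INHBE, the cytokine IL32 and the chaperone cofactor DNAJC18, with log2 fold changes from 2.70 for DNAJC18 to 4.73 for SRPK3. SRPK3 shares part of its exon sequence positions with an overlapping annotated gene, and its value is uncertain.

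The largest decreases by fold were in PIF1, TNFAIP8L1, MEIOB and KIF20A, in that order. PIF1, a helicase that unwinds telomeric and G-quadruplex DNA (chromosome 15, 64815632 to 64825668), was at 0.942, 1.69 and 0.894 CPM with niraparib and 28.7, 18.9 and 18.5 CPM with DMSO, which gave a log2 difference of -4.16 ± 0.27 (SE) (adjusted p = 2.5e-06). TNFAIP8L1, a regulator of cell death, was at 2.19, 1.13 and 2.33 CPM against 20.3, 23 and 20.8 CPM (-3.56 ± 0.18 (SE), adjusted p = 4.4e-09). Every DMSO library of both genes was many times the highest niraparib library. KIF20A, a kinesin of cytokinesis (chromosome 5, 138178719 to 138187723), fell from 181, 202 and 195 CPM to 26.9, 21.7 and 23.9 CPM, a log2 fold change of -3.00 ± 0.07 (SE) (adjusted p = 9.2e-18). PLK1, the kinase that drives mitotic entry, was at 44, 34.2 and 41.3 CPM with niraparib and 209, 223 and 221 CPM with DMSO (-2.46 ± 0.07 (SE), adjusted p = 1.4e-14). CCNB1, the cyclin B1 partner of CDK1, was at 89.1, 77 and 92.4 CPM against 359, 416 and 402 CPM (-2.19 ± 0.07 (SE), adjusted p = 1.0e-14). The rule that named these genes required that the groups did not overlap. The remaining decreases named by the same rule were MEIOB, SLC4A8, SMIM33, the antisense RNAs IER5L-AS1 and SLC16A4-AS1, the pseudogene CEACAM22P and FAM72D, between -3.13 for MEIOB and -2.20 for SLC16A4-AS1. FAM72D belongs to a family of near-identical copies whose reads can be assigned to one another, and its value is uncertain.

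Ranked by the difference in CPM rather than by fold, the called genes with the largest losses were ACTB, which encodes beta-actin, AHNAK, STC2, TOP2A, SCD and HSP90B1. ACTB went from 4222, 4478 and 4427 CPM with DMSO to 2762, 2578 and 2858 CPM with niraparib (-0.68 ± 0.05 (SE), adjusted p = 1.1e-09). TOP2A, the topoisomerase that untangles chromosomes before division, went from 1178, 1353 and 1299 CPM to 497, 438 and 476 CPM (-1.44 ± 0.06 (SE), adjusted p = 2.1e-14). SCD, the desaturase that makes oleate, and HSP90B1, a chaperone of the endoplasmic reticulum, had log2 fold changes of -0.98 ± 0.05 (SE) and -0.62 ± 0.06 (SE). The log2 fold change of HSP90B1 was -0.55 without niraparib replicate 2, which is under the fold needed for a call. The called genes with the largest gains included SLC3A2, AARS1, SPTAN1, a spectrin of the membrane skeleton, and DDX21, a helicase of the nucleolus. SLC3A2, the heavy chain of amino acid transporters, was at 908, 965 and 909.9 CPM against 364, 374 and 341 CPM (1.37 ± 0.05 (SE), adjusted p = 5.1e-15). AARS1, which charges tRNA with alanine, lay close to the 1.5-fold limit at 0.59 ± 0.05 (SE), and dropping niraparib replicate 1, niraparib replicate 2 or DMSO replicate 3 put it under that limit.

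Over 44 gene lists, mitosis was the list with the largest share of members called lower, and p53 targets the list with the largest share called higher among lists of at least 12 tested genes. Shares are read against the 8.1% of all genes called higher and the 5.72% called lower. Mitochondrially encoded genes (0 of 13 called), cytosolic ribosomal proteins (1 of 79 called, higher), genes of base excision, nucleotide excision and mismatch repair (2 of 32) and lysosome and autophagy genes (3 of 31) were at or below the shares of all genes. The PARP family and NAD metabolism list had 2 of 25 members called, both higher, which is also near the share of all genes.

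**Figure D2:**
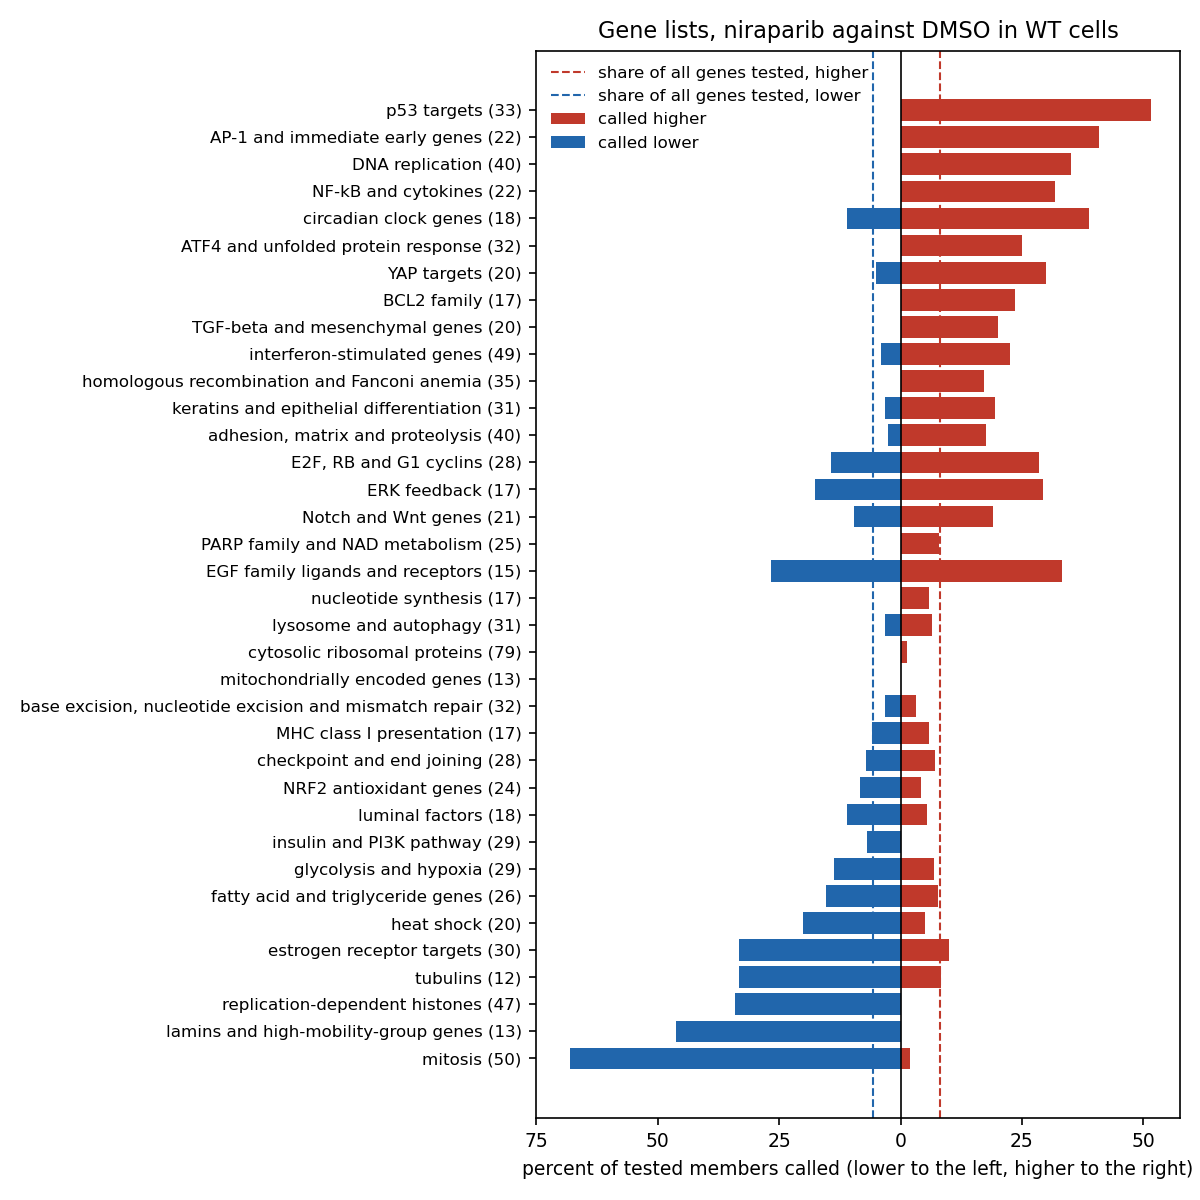
Percent of tested members called lower (blue, to the left) or higher (red, to the right) with niraparib against DMSO in WT cells, for the gene lists with at least 12 tested members other than cell type markers, with the number tested in brackets. Dashed lines mark the 5.72% of all genes called lower and the 8.1% called higher, and the mitosis bar reaches farthest to the left with 34 of 50 members.

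Of 50 genes of mitosis and chromosome segregation, 34 were lower, 1 was higher and 15 were not called, and the median log2 fold change was -0.89 against -0.02 over all genes. At an adjusted p below 0.05 without the fold threshold 46 were lower, and the groups did not overlap in 48. KIF14, a kinesin of the midbody, was at 34.3, 31.2 and 32.6 CPM with niraparib and 132, 121 and 118 CPM with DMSO (-1.92 ± 0.06 (SE), adjusted p = 2.8e-16). CCNA2, the cyclin of S and G2 phase, was at 50.2, 46.5 and 46.3 CPM against 162, 162 and 162 CPM (-1.77 ± 0.05 (SE), adjusted p = 2.8e-16). Libraries of a group differed little in these genes, and every niraparib library was far below the lowest DMSO library. PTTG1, which encodes securin, the inhibitor of chromatid separation, was at 75.1, 68.8 and 74.4 CPM against 227, 227 and 229.9 CPM (-1.65 ± 0.05 (SE), adjusted p = 2.8e-16). The member called higher was MYBL2, the MYB factor transcribed late in G1 phase, with a log2 fold change of 0.65. This gene was picked after its value was seen. The summed level of the 50 genes was 5795 to 6101 CPM with niraparib and 10650 to 11470 CPM with DMSO.

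Genes of DNA synthesis went the other way. Of 40 DNA replication genes, 14 were higher, 0 were lower and 26 were not called, with a median log2 fold change of 0.49. At an adjusted p below 0.05 alone, 31 were higher and 1 was lower. DTL, the substrate adaptor that clears the licensing factor CDT1 during S phase, was at 176, 178 and 171 CPM with niraparib and 58.9, 64.2 and 66 CPM with DMSO (1.48 ± 0.05 (SE), adjusted p = 2.0e-15). POLA1, the catalytic subunit of the polymerase that makes primers extended at the fork, was at 96.4, 100.3 and 98.9 CPM against 49.4, 51.6 and 52.8 CPM (0.94 ± 0.05 (SE), adjusted p = 4.6e-12). Neither gene overlapped between the groups, and the libraries of a group lay close together. MCM10, which helps to activate the loaded replicative helicase, and CLSPN, which relays the ATR checkpoint signal, had log2 fold changes of 1.02 ± 0.06 (SE) and 1.09 ± 0.08 (SE). The summed level of the list was 3669 to 3695 CPM with niraparib and 2649 to 2862 CPM with DMSO, opposite in direction to the sum of the mitosis list in every library. Of 28 genes of the E2F, RB and G1 cyclin list, 8 were higher and 4 lower. E2F2, an activating E2F factor, rose by 1.10 ± 0.07 (SE) on the log2 scale, while CDKN2C, an inhibitor of CDK4 and CDK6, and CCND1, cyclin D1, had values of -1.19 ± 0.07 (SE) and -1.06 ± 0.06 (SE). Replication-dependent histone genes had 16 of 47 tested members lower, 0 higher and a median of -0.72. Their transcripts mostly lack a poly(A) tail and were therefore measured here only in their polyadenylated form. Of the 47 tested members, 27 averaged under 1 CPM in the 6 libraries. H2BC21 was at 20.3, 17.4 and 20.3 CPM with niraparib and 47.9, 43.4 and 46.3 CPM with DMSO (-1.25 ± 0.07 (SE), adjusted p = 4.1e-12). Among 13 lamin and high-mobility-group genes, 6 were lower and 0 higher, among them HMGB2 (-0.99 ± 0.05 (SE)) and LMNB1 (-0.84 ± 0.05 (SE)). Of 12 tubulin genes, 4 were lower and 1 was higher.

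**Figure D3:**
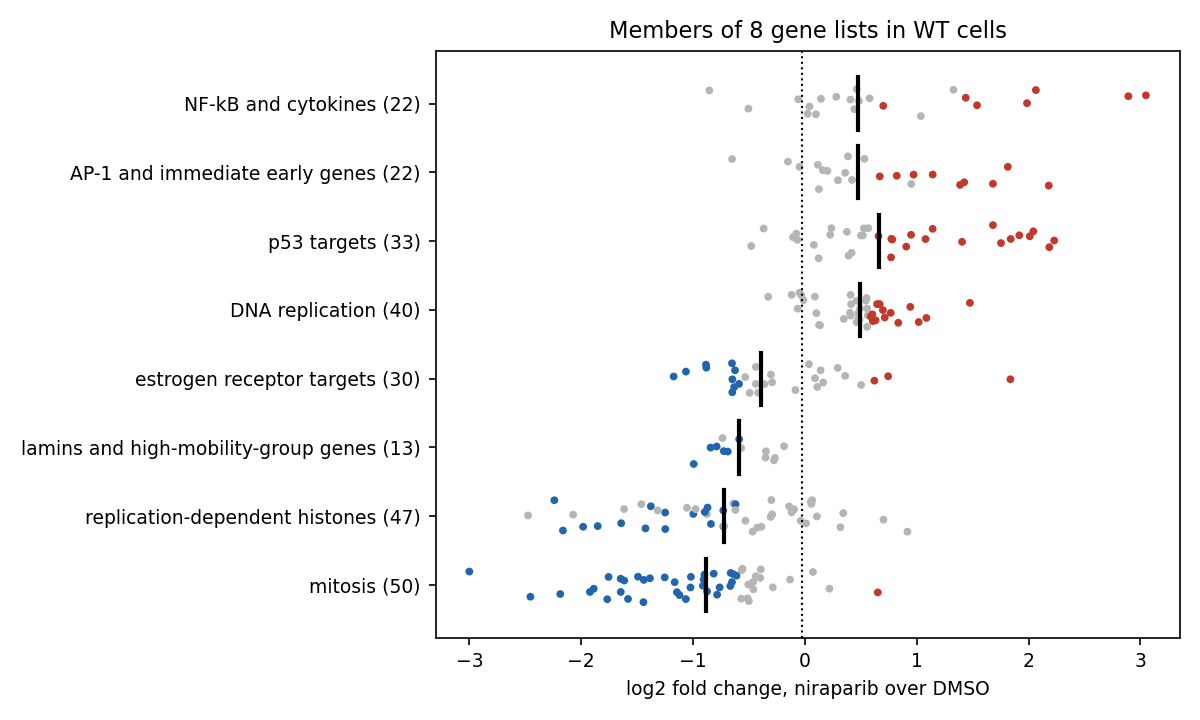
Log2 fold change (niraparib over DMSO, WT cells) of every tested member of 8 gene lists, 1 point a gene, red where called higher, blue where called lower and grey where not called. Black bars are list medians, from -0.89 for mitosis to 0.66 for p53 targets, and the dotted line is the median of all genes, -0.02.

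The promoters of these lists are shown because mitosis and DNA replication genes moved apart. RefSeq start-site windows of GRCh38.p14, 250 bases before to 50 bases after the start, were searched on both strands for the CHR element TTTGAA, for the CCAAT box and for the E2F sites TTTCCCGC and TTTGGCGC, with overlapping matches counted. Windows were used for the 9713 tested genes that have a single one. The CHR element was in 26 of 36 windows of the mitosis list (72.2%), in 0 of 29 of the DNA replication list and in 973 of all 9713 (10.0%). At least 1 CCAAT box was in 77.8%, 55.2% and 37.2% of the same windows. An E2F site was in 2 of 36 (5.56%), 14 of 29 (48.3%) and 344 of 9713 (3.54%). Among protein-coding genes called lower, 85 of 395 windows (21.5%) held a CHR element and 61 (15.4%) both a CHR element and a CCAAT box, against 72 of 822 (8.76%) and 30 (3.65%) of those called higher. These shares describe letters in a window and say nothing of factor binding. Printed are, for each list, both members of lowest p whose window holds the motifs, KIF14 at chr1:200620702-200621001 (minus strand) and CDC20 at chr1:43358731-43359030 (plus strand), then DTL at chr1:212035498-212035797 (plus) and POLA1 at chrX:24693668-24693967 (plus). CDC20, which activates the anaphase-promoting complex, had a log2 fold change of -1.58. Capitals mark CHR elements and CCAAT boxes in KIF14 and CDC20 and E2F sites in DTL and POLA1, on either strand, written 5′ to 3′ along the strand of the gene.
KIF14: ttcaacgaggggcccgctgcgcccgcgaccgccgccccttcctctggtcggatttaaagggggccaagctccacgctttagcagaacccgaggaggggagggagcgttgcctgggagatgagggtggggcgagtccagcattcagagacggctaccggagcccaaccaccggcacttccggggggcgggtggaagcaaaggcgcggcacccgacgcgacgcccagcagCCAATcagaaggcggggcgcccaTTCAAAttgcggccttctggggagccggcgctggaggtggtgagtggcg
CDC20: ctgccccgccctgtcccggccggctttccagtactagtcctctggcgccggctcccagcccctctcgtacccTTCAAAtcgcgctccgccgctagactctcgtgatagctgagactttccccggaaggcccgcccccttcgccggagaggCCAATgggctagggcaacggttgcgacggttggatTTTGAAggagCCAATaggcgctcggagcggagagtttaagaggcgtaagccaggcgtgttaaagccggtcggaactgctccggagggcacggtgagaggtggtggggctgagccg
DTL: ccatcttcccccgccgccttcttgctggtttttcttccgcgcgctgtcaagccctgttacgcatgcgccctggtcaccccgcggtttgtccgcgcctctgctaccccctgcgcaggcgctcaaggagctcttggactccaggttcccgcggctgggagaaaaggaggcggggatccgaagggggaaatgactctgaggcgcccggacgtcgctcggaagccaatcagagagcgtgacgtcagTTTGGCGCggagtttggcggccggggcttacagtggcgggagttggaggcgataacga
POLA1: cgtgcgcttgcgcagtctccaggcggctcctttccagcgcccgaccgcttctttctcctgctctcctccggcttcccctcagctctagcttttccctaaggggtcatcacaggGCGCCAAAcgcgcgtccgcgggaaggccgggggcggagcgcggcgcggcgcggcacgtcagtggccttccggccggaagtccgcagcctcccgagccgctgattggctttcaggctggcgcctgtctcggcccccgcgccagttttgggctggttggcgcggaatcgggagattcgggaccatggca

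In these windows CDC20 has a CHR element that starts 65 bases before the transcription start and a CCAAT box that starts 55 bases before it, and DTL has an E2F site that starts 8 bases before it.

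Of 33 tested target genes of p53, 17 were higher, 0 were lower and 16 were not called, with a median log2 fold change of 0.66. CDKN1A, which encodes the CDK inhibitor p21, was at 275, 289 and 291 CPM with niraparib and 51.1, 65.8 and 65.1 CPM with DMSO (2.23 ± 0.07 (SE), adjusted p = 3.1e-12). AEN, a nuclease of apoptotic cells, was at 77.6, 88.9 and 81.8 CPM against 18.2, 19.4 and 17 CPM (2.19 ± 0.07 (SE), adjusted p = 8.0e-16). For both genes every niraparib library was several times the highest DMSO library. GDF15, a secreted stress hormone, was at 106, 102 and 99 CPM against 28, 33.3 and 29.5 CPM (1.75 ± 0.06 (SE), adjusted p = 1.3e-14). BTG2, an antiproliferative cofactor of mRNA deadenylation, was at 98.5, 98.4 and 94.2 CPM against 29.5, 32.1 and 29.1 CPM (1.68 ± 0.06 (SE), adjusted p = 2.2e-15). RRM2B, the p53-inducible subunit of ribonucleotide reductase, rose by 1.08 ± 0.05 (SE) on the log2 scale. What drove these genes was not tested. MDM2 was not called, at 0.42, and CCNG1 was at -0.07. These 2 were picked after their values were seen. In the BCL2 family 4 of 17 tested genes were higher and 0 lower. The lowest p was that of the BH3-only gene PMAIP1 (1.84 ± 0.11 (SE), adjusted p = 1.1e-11), while BBC3 was at 0.78 ± 0.12 (SE) and BAX, not called, at 0.52 ± 0.06 (SE). BCL2L14, named after its value was seen, had the largest fold of the list at 3.97 on the log2 scale, from 80 counts over the 6 libraries.

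Repair and checkpoint genes moved less. In the list of homologous recombination and Fanconi anemia genes 6 of 35 were higher and 0 lower, with a median of 0.27. EXO1, which resects DNA ends, was at 68, 65 and 71 CPM with niraparib and 25.6, 28.4 and 31.5 CPM with DMSO (1.25 ± 0.06 (SE), adjusted p = 1.5e-12). XRCC3, a homologous recombination factor, had a log2 fold change of 0.84 ± 0.06 (SE). Among 28 checkpoint and end joining genes, 2 were higher and 2 were lower. These counts are near the shares of all genes, 8.1% called higher and 5.72% called lower. PKMYT1, one of the kinases that hold CDK1 inactive, rose by 0.83 ± 0.05 (SE), while WEE1, another kinase of that kind, was lower at -0.69 ± 0.07 (SE), and CHEK2 was lower at -0.76 ± 0.06 (SE). Each of these 3 genes had groups that did not overlap.

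Stress and inflammatory transcription factors were among the genes that rose. Of 22 AP-1 and immediate early genes, 9 were higher and 0 lower, with a median of 0.48. ATF3, a stress-induced repressor, was at 182, 219 and 190.0 CPM with niraparib and 59.8, 58.2 and 50.1 CPM with DMSO (1.81 ± 0.08 (SE), adjusted p = 5.6e-11). In the NF-kB and cytokine list, 7 of 22 tested genes were higher, 0 lower, with a median of 0.47. RELB, the noncanonical NF-kB subunit, was at 17.5, 17.5 and 15.8 CPM against 3.91, 4.69 and 4.13 CPM (1.99 ± 0.10 (SE), adjusted p = 1.5e-12). LIF, a cytokine of the interleukin 6 family, was at 3.04, 5.82 and 3.85 CPM against 0.741, 0.473 and 0.377 CPM (3.05 ± 0.27 (SE), adjusted p = 1.0e-08), and TNFAIP3, an inhibitor of NF-kB, had a value of 1.44 ± 0.13 (SE). All niraparib libraries of these 4 genes lay above all DMSO libraries, although LIF was low in every library and varied most. Interferon-stimulated genes were mixed, with 11 of 49 higher and 2 lower. ISG20, an RNA exonuclease, rose by 1.86 ± 0.10 (SE) and IRF1, a factor induced by interferons, by 1.09 ± 0.12 (SE), whereas IFIT1, which binds foreign RNA ends, was lower at -1.23 ± 0.14 (SE). Of 32 ATF4 and unfolded protein response genes, 8 were higher and 0 lower. PPP1R15A, the phosphatase subunit that restores translation, was at 117, 129.9 and 114 CPM against 43.2, 46.7 and 39.4 CPM (1.48 ± 0.07 (SE), adjusted p = 7.8e-13). TRIB3 and CEBPG of the ATF4 branch had values of 0.92 ± 0.05 (SE) and 0.97 ± 0.04 (SE). The median of the list was 0.05. At an adjusted p below 0.05 without the fold threshold, 13 members were higher and 9 were lower.

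**Figure D4:**
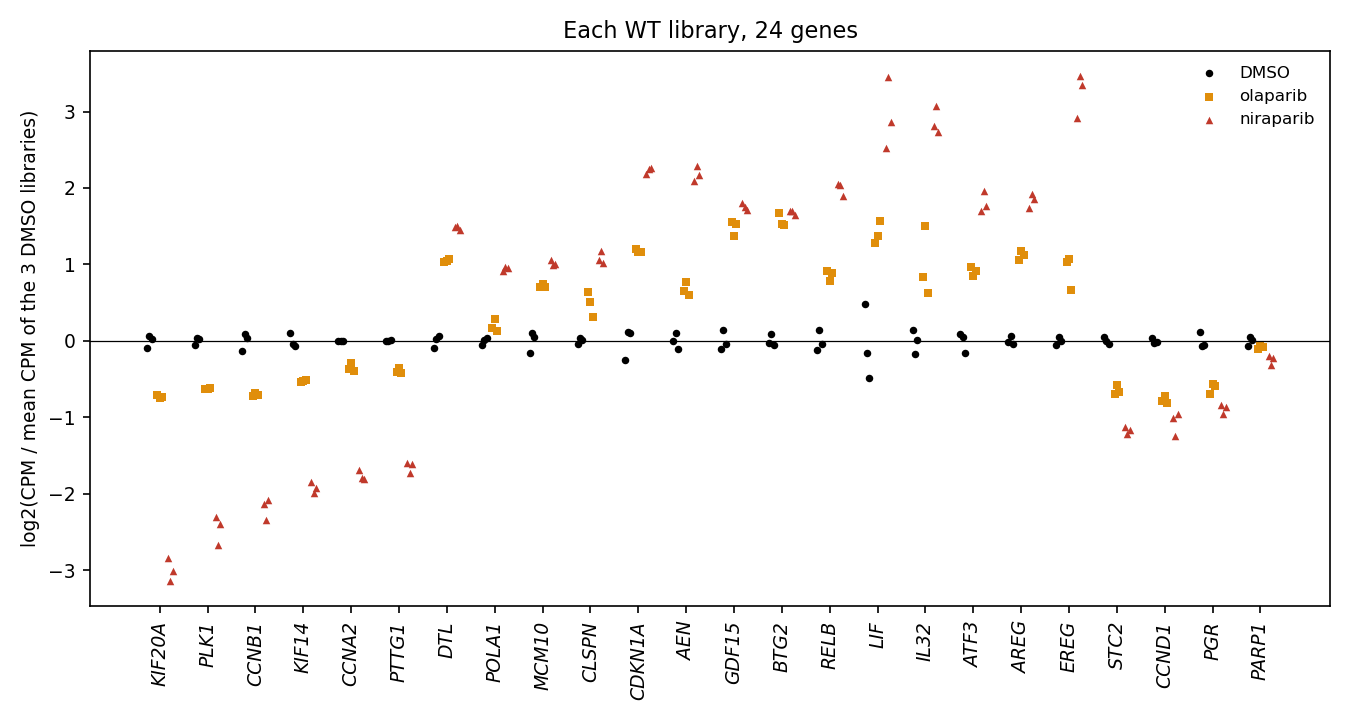
Level of 24 genes in each WT library as log2 of the CPM over the mean CPM of the 3 DMSO libraries, with DMSO in black circles, olaparib in orange squares and niraparib in red triangles. Niraparib triangles lie apart from the DMSO circles in each gene shown, below them from KIF20A to PTTG1 and above them from DTL to EREG, and the olaparib squares mostly lie between.

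Estrogen receptor targets were lower more often than higher. Among 30 estrogen receptor targets, 10 were lower and 3 higher, with a median of -0.39, and without niraparib replicate 2 the number lower was 6. STC2, a secreted glycoprotein, was at 1085, 1018 and 1062 CPM with niraparib and 2466, 2367 and 2303 CPM with DMSO (-1.17 ± 0.05 (SE), adjusted p = 1.1e-13). PGR, the progesterone receptor, was at 793, 729 and 774 CPM against 1532, 1343 and 1364 CPM (-0.88 ± 0.06 (SE), adjusted p = 4.8e-11). CCND1, also on this list, was at 194, 164 and 200.1 CPM against 400.0, 382 and 383 CPM. For STC2, PGR and CCND1 every niraparib library was below every DMSO library. ESR1, the estrogen receptor gene itself, was at 119, 113 and 114 CPM against 173, 165 and 171 CPM, a log2 fold change of -0.56 ± 0.05 (SE) (adjusted p = 2.2e-09) that was under the fold needed for a call. Of 18 luminal factors 2 were lower, 1 was higher and 15 were not called, with GATA3, a luminal lineage factor, lower at -0.74 ± 0.05 (SE). Of 31 keratin and epithelial differentiation genes 6 were higher and 1 lower. Of the 12 luminal markers 2 were called, PGR and GATA3, and the summed level of the 12 was 11640 to 12920 CPM with niraparib and 15710 to 16490 CPM with DMSO. Of the basal and mesenchymal markers 6 were tested and 2 were higher, the receptor kinase AXL (2.16 ± 0.19 (SE)) and TP63 (0.78 ± 0.20 (SE)). The summed level of the 6 was 52.2 to 58.5 CPM against 39.3 to 44.6 CPM, most of it FN1, which was not called at a log2 fold change of 0.25. A change in the make-up of the culture and a change per cell cannot be told apart in bulk RNA.

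EGF family genes changed in both directions. AREG, the ligand amphiregulin, was at 188, 213 and 205 CPM with niraparib and 55.8, 58.7 and 54.8 CPM with DMSO (1.84 ± 0.05 (SE), adjusted p = 2.9e-16). EREG, the ligand epiregulin, was at 4.74, 6.95 and 6.41 CPM against 0.607, 0.651 and 0.629 CPM (3.26 ± 0.21 (SE), adjusted p = 3.6e-11). The ligand EGF went down, from 47.3, 46 and 42 CPM to 22.8, 21 and 22 CPM (-1.04 ± 0.06 (SE), adjusted p = 1.3e-11), so that AREG and EREG were higher and EGF lower in every niraparib library. LRIG1, which promotes degradation of ERBB receptors, was lower at -0.77 ± 0.05 (SE). Of the 15 tested genes of the list 5 were higher and 4 lower. The 5 were the ligands AREG, EREG, EPGN, HBEGF and BTC, the 4 were the ligand EGF, the receptors ERBB3 and ERBB4, and LRIG1, and 6 were not called. HBEGF, BTC, ERBB3 and ERBB4 were named after their values were seen.

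Protein-coding and long noncoding RNA genes differed in direction. Among 14818 protein-coding genes tested, 10.2% were higher and 4.88% lower, whereas among 4372 lncRNA genes 4.8% were higher and 9.26% lower. Since lncRNAs are scarce, genes averaging 1 to 5 CPM were set side by side. Of 1455 protein-coding genes in this range 378 (26%) were higher and 130 (8.93%) lower, and of 732 lncRNAs 73 (9.97%) were higher and 159 (21.7%) lower. In the fits that left out 1 library in turn, between 137 and 188 of these lncRNAs were lower and between 67 and 75 higher. Against olaparib, 16.1% of the lncRNAs were higher and 7.24% lower with niraparib, close to the 18.1% and 7.22% of the protein-coding genes. Of lncRNAs named as transcripts divergent from a coding gene, 50 of 410 were lower and 11 higher, and of 38 named as host genes of small RNAs 11 were lower and 2 higher. Of 817 named as antisense RNAs 86 were lower and 54 higher, and of 478 named as intergenic RNAs (LINC) 37 were lower and 43 higher. Counting was strand-specific, so that reads of antisense RNAs were kept apart from those of their partners. By chromosome, the share of tested genes called higher ranged from 6.08% to 11.5% and the share called lower from 3.96% to 7.7%.

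**Figure D5:**
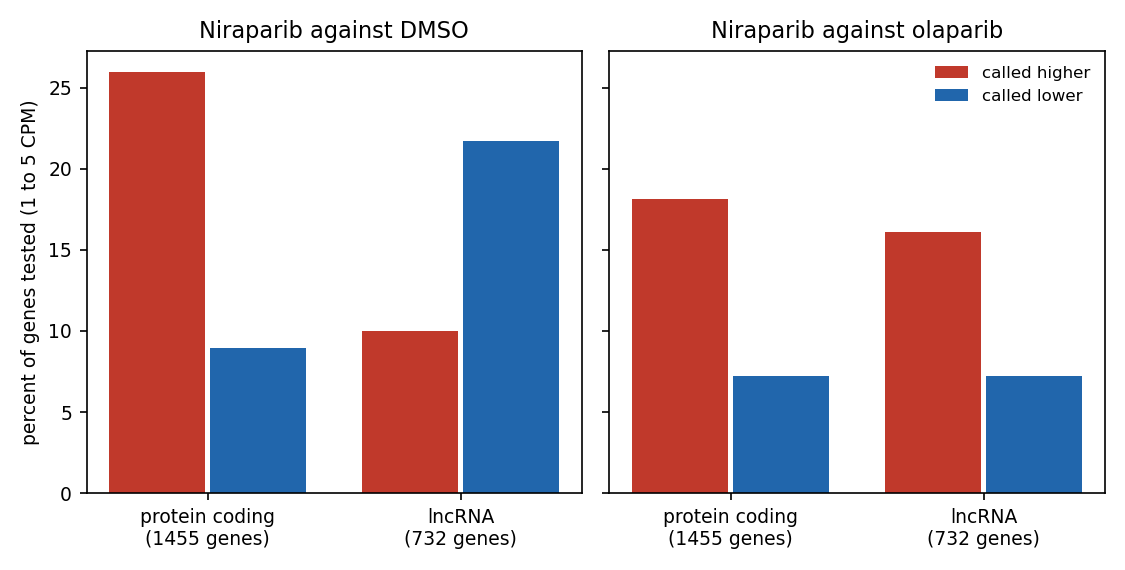
Percent of protein-coding genes and of lncRNAs with a mean of 1 to 5 CPM called higher (red) or lower (blue) with niraparib, against DMSO on the left and against olaparib on the right. Against DMSO, 26% of 1455 protein-coding genes were higher and 21.7% of 732 lncRNAs were lower.

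Niraparib and olaparib share the nicotinamide-like carboxamide group by which PARP inhibitors bind, on different ring systems, and were contrasted at the same dose and time in the fit of the 9 WT libraries, in which the DMSO libraries enter only the scaling, the filter and the estimate of the spread. In this comparison 1261 genes (5.62% of those tested) were higher and 748 (3.33%) lower with niraparib than with olaparib. A fit of the 6 niraparib and olaparib libraries alone called 1388 higher and 697 lower. Of the 50 mitosis genes, 26 were lower and 0 higher with niraparib, with a median difference of -0.60. KIF20A was at 117, 114 and 116 CPM with olaparib, which placed it -2.27 ± 0.06 (SE) lower with niraparib on the log2 scale (adjusted p = 2.1e-15). TOP2A was at 1226, 1189.6 and 1184 CPM with olaparib, inside the range of the DMSO libraries, and -1.35 ± 0.06 (SE) lower with niraparib (adjusted p = 3.4e-13). Of 40 DNA replication genes 5 were higher with niraparib and of 33 p53 targets 7. BTG2 and GDF15 differed little between the drugs. The difference was 0.11 ± 0.05 (SE) for BTG2 (adjusted p = 0.13) and 0.27 ± 0.06 (SE) for GDF15 (adjusted p = 0.0016), against 1.51 ± 0.07 (SE) for AEN (adjusted p = 4.3e-13). Among genes averaging at least 1 CPM over the 6 niraparib and olaparib libraries, with no overlap between the drugs, the largest differences upward were in MMP10, ANKRD1, KRT17, CREB5 and SRPK3, between 2.95 and 5.25, and downward in TNFAIP8L1, PIF1, KIF20A, FBLN2 and IER5L-AS1, between -2.88 and -2.02. ANKRD1, a target of the YAP coactivator, was at 3.52, 4.96 and 4.17 CPM under niraparib, at 0.447, 0.439 and 0.258 CPM under olaparib and at 0.674, 0.631 and 0.679 CPM in the DMSO libraries. It was thus highest with niraparib and lowest with olaparib, with no overlap between the 3 groups.

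Whether the response to niraparib differed between WT and PARP1 KO cells was addressed by the interaction, the WT difference minus the PARP1 KO difference in one fit of all 18 libraries. It was called for 1283 genes in the positive direction (5.2% of 24675 tested) and for 908 in the negative direction (3.68%). PLK1 was at 195, 193 and 178 CPM with niraparib and 208, 204 and 204 CPM with DMSO in PARP1 KO cells, and its interaction was -2.33 ± 0.09 (SE) (adjusted p = 2.1e-16). CDKN1A was at 74.9, 81.9 and 56 CPM against 59.9, 65.9 and 65.7 CPM there (2.08 ± 0.18 (SE), adjusted p = 1.3e-06), and AREG at 61.5, 61.8 and 60.3 CPM against 54.6, 52.8 and 56.2 CPM (1.67 ± 0.08 (SE), adjusted p = 4.9e-18). In PARP1 KO cells the CDKN1A libraries of the treatments overlapped, while PLK1 was lower and AREG higher in every niraparib library, by less than in WT cells. Of the 50 mitosis genes 33 had a called interaction in the negative direction, and of 33 p53 targets 18 in the positive direction. Genotype and line cannot be told apart in this comparison.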

How the data were processed

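Poly(A)-selected, strand-specific RNA-seq of T47D cells was analysed. The authors aligned reads to GRCh38 with STAR and deposited raw counts per gene, made with featureCounts 2.0.0 on Ensembl release 96, for 58884 gene IDs, of which 41967 were paired with a symbol. Genes whose counts summed to over 10 were TMM-normalised and tested with the edgeR 4.0.16 quasi-likelihood test (R 4.3.3) with Benjamini-Hochberg adjustment, in 1 fit of the 9 WT libraries, and in a fit of all 18 libraries for the interaction. Calls needed an adjusted p under 0.05 together with a fold above 1.5. Depth is given as total counts, and intervals cover counting error only. An exact permutation test of 3 against 3 libraries cannot go below 0.1. The named genes were those with the largest folds (mean of at least 1 CPM, groups not overlapping), the largest differences in CPM among called genes, the largest differences from olaparib and in the interaction, and up to 4 members of lowest p in each of 44 lists. Some genes that this rule or a list names are not reported here. Others are marked as chosen after their values were seen. Members and lists were chosen with earlier results of these data known. DESeq2 1.42.0, other scalings, filters, thresholds and fits without 1 library were alternatives. The test was checked on simulated data.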

Additional observations from a re-analysis of the deposited data

Results flagged for a closer look

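The genotype by niraparib interaction was called for 2191 genes, so that the effect in WT cells differed from that in PARP1 KO cells by the test of the difference itself. The genes named here had the largest values among genes that averaged at least 1 CPM over the 12 niraparib and DMSO libraries of both genotypes, scaled over all 18 libraries. Under that limit fell KRT17, at 3.84, and CEACAM22P, at -2.56 and just below 1 CPM. MMP10 had an interaction of 8.45 on the log2 scale, with 0, 0.0308 and 0.0473 CPM with niraparib and 0, 0.0979 and 0 CPM with DMSO in PARP1 KO cells. This fitted value depends on the prior count, since 3 of the 4 groups were near 0, and it was no longer called without PARP1 KO DMSO replicate 2, at 5.17. RASSF10 had an interaction of 4.91, with 0.491, 0.431 and 0.355 CPM against 0.0822, 0.0326 and 0.191 CPM in PARP1 KO cells. BEST1 had 3.41 (4.17, 2.95 and 5.28 CPM against 4.60, 4.02 and 3.10 CPM), DNAJC18 2.94 and EPGN 2.86. In the negative direction PIF1 had -4.23, with 14.8, 13.1 and 19.5 CPM with niraparib and 17.9, 16.7 and 10.5 CPM with DMSO in PARP1 KO cells. TNFAIP8L1 had -3.25, MEIOB -2.78, KIF20A -2.77 and SMIM33 -2.46. KIF20A was at 149, 152 and 140.4 CPM with niraparib and 175, 171 and 171 CPM with DMSO in PARP1 KO cells, lower in every niraparib library there too.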

How the results depend on the processing

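With the adjusted p alone, 8530 genes passed against DMSO (4469 higher, 4061 lower), 7232 against olaparib (3605, 3627) and 5661 in the interaction (3090 positive, 2571 negative). With an absolute log2 fold change above 1.5, the counts were 709 (454, 255), 367 (284, 83) and 457 (228, 229). Leaving out 1 library in turn gave 2813 to 3128 genes against DMSO (1656 to 1752 higher, 1106 to 1438 lower), 1695 to 2002 against olaparib (1066 to 1205, 629 to 797) and 1991 to 2279 in the interaction (1197 to 1396, 779 to 1022). DESeq2 called 2902 genes against DMSO, RLE size factors 3105, filterByExpr 2947, no filter 3129, all 18 libraries in the fit 3101 and only the 6 libraries 2957. The fit without niraparib replicate 2 and DMSO replicate 1 was chosen after seeing the data. Of the 3102 genes called against DMSO, 2017 (65.0%) were called in every fit that left out 1 library. Among named genes, PER2 (0.58 without niraparib replicate 2) and BHLHE40 (-0.56 without niraparib replicate 2 and DMSO replicate 1) fell under the 1.5-fold limit. The markers CD14 and VWF, not called and with few counts, changed sign. Over the fits without 1 library or without niraparib replicate 2 and DMSO replicate 1, CD14 ranged from -1.18 to 0.36 on the log2 scale and VWF from -1.24 to 0.13. Why counts differed was not tested.

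Deviations of same-numbered niraparib and DMSO libraries from their group means had correlations of -0.36, -0.52 and 0.35 over 13571 genes, positive for replicate 3 alone, so the numbers were not taken as pairs. The largest correlation was 0.62, between niraparib replicate 2 and DMSO replicate 1, which lay farthest from their groups. With the replicate number as a block, 2920 genes were called against DMSO, 1859 against olaparib and 2102 in the interaction.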

Other observations

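Circadian clock genes changed in both directions. Of 18 tested, 7 were higher and 2 lower. NR1D1, the clock repressor REV-ERB alpha, was at 78.7, 80.3 and 66.9 CPM with niraparib and 22.8, 21.7 and 21.1 CPM with DMSO (1.78 ± 0.08 (SE), adjusted p = 1.2e-11), with no overlap. PER2, a repressor of the core clock, was at 0.69 ± 0.07 (SE), and BHLHE40, a repressor of clock genes, was lower at -0.64 ± 0.05 (SE). Time of day at harvest is not given in the labels.

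Heat shock genes were lower more often than higher, with 4 of 20 lower and 1 higher. HSPA8, the constitutive cytosolic chaperone, was at 561, 488 and 619 CPM with niraparib and 939, 1039 and 1072 CPM with DMSO (-0.87 ± 0.07 (SE), adjusted p = 5.7e-08). Every niraparib library was below every DMSO library. HSPB8, a small heat shock protein, rose by 0.88 ± 0.06 (SE). HSPA1A and HSPA1B are near-identical copies, so that the value of HSPA1A (-0.85 ± 0.07 (SE)) is uncertain.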
